A study of Mus musculus with 12 samples.

Results

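The genes described here are 39 genes of the cell cycle and of proliferation, given by their symbols, of the 49585 genes counted in the adrenal cortex of 12 mice. They comprise 22 genes whose products act in mitosis and 17 genes whose products act at the start of S phase or in DNA replication. Each of the 39 symbols matched exactly 1 identifier in the count files, and all 39 genes passed the filter on low counts in each of the 3 comparisons. RNA of the adrenal cortex was sequenced as 1 library per mouse from male C57BL/6J mice that were 6 weeks old at the start of feeding. There were 4 mice fed a low-fat diet (LFD) for 20 weeks, 4 fed a high-fat diet (HFD) for 20 weeks, and 4 fed the HFD for 20 weeks with icosapent ethyl, a purified ethyl ester of eicosapentaenoic acid, added in the last 10 weeks. Fat supplied 10% of the energy of the LFD and 60% of that of the HFD. The labels of all 12 mice give a *Fads2* -/- genotype, whereas the study's methods describe wild-type mice. The groups are of 4 separate mice each, named below by the numbers in the labels (LFD 2, 5, 6, and 7, and 1 to 4 in the other groups).

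A cell that divides first copies its DNA in S phase and then separates the copies in mitosis. Cyclin E with its kinase and the E2F transcription factors start S phase, the Mcm helicase, loaded by Cdc6 and Cdt1, opens the DNA, and cyclin A and B with Cdk1, the Aurora and Polo kinases, spindle proteins, and the anaphase-promoting complex carry the cell through mitosis. Many mitotic genes are transcribed mainly late in the cycle and their mRNA is scarce in resting tissue, whereas replication genes such as *Pcna* and the *Mcm* genes are also transcribed outside S phase. In the adult adrenal cortex, new steroid-producing cells arise mainly from progenitors in and under the capsule and in the outer zone.

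Expression is given as CPM, the deposited counts of a gene per 1000000 counts of its library, with library totals scaled in edgeR by TMM (a trimmed mean of the ratios between libraries). The libraries held from 34785979 to 67295963 counts on genes. All 7 markers of cortical cells were expressed, with sums of 41300.0 to 94420.0 CPM per mouse. The 6 chromaffin markers, of the adrenal medulla, summed to between 2418 and 17550.0 CPM, so that every library also held RNA of the medulla. *Cyp11b2*, the aldosterone synthase of the outer zone, was present in every mouse, and the 2 markers of the X zone summed to at most 0.122 CPM. In bulk tissue, a change in the number of cycling cells cannot be told apart from a change in RNA per cell.

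Mitotic genes were scarce. A mitotic gene had between 8 and 483 counts in a mouse, with a median of 77.0, and an S phase gene between 16 and 7180, with a median of 667.5. Levels of different genes are compared per kilobase of exon. On this scale, the mean over the 12 mice was 0.123 to 1.49 CPM per kb for the mitotic genes, with a median of 0.449, and 0.130 to 35.4 CPM per kb for the S phase genes, with a median of 4.06. *Pcna*, the clamp that holds polymerases on DNA, was the highest of the 39 genes, and *Mcm2*, *Mcm3*, *E2f1*, and *Mcm7* followed. *Cenpe*, a kinesin of the kinetochore, was the lowest. Among the mitotic genes, *Cdc20*, the activator of the anaphase-promoting complex, was highest per kilobase, with 1.01 in LFD, 1.96 in HFD, and 1.49 CPM per kb in icosapent ethyl–treated mice.

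The sequences upstream of the members are shown because the mitotic and the S phase genes, which are described separately below, differed in short motifs that the choice of the genes did not use. RefSeq promoters (GRCm38.p6, 250 bases before to 50 after the start) were matched for 18 of the 22 mitotic and 15 of the 17 S phase genes. Motifs were counted per gene, and a gene with more than 1 promoter was counted if any of them held the letters. The cell cycle genes homology region (CHR), an element known from late cell cycle promoters, was searched as TTTGAA or TTCGAA on both strands. It was found in 14 of the 18 mitotic genes (77.8%), in 2 of the 15 S phase genes (13.3%), and in 21.7% of all 27025 genes with a promoter. The CCAAT box, the site of the factor NF-Y, was found in 88.9%, 60%, and 41.1% of these genes. E2F sites were searched as TTTCCCGC, TTTGGCGC, TTTCGCGC, or TTTGCCGC on both strands. They were found in 1 of the 18 mitotic genes, in 7 of the 15 S phase genes (46.7%), and in 2.6% of all genes with a promoter. E2F letters on both strands can overlap and then form 1 longer run of capitals. A match is a run of letters and does not show that a factor binds. Among other genes of the same processes with a promoter, CHR letters were in 27 of 38 further mitotic genes (71.1%) and in 9 of 41 further replication genes (22.0%). The stretches printed lie upstream of the annotated exons and read 5′ to 3′ on the strand of the gene, and capitals mark the motif letters. The first 4 are of mitotic genes and each hold at least 1 CHR and at least 1 CCAAT box, at *Cdk1* (chr10:69352939-69353032, minus strand), *Cdc20* (chr4:118437353-118437463, minus strand), *Kif11* (chr19:37376262-37376381, plus strand), and *Top2a* (chr11:99024190-99024349, minus strand). *Mcm6* (chr1:128359706-128359825, minus strand) and *Mcm5* (chr8:75109349-75109508, plus strand) are S phase genes with E2F letters. *Cenpe* (chr3:135212443-135212536, plus strand) and *Ccne1* (chr7:38107535-38107610, minus strand) are the member past the edgeR threshold and the member with the largest negative fold change in HFD versus LFD mice, and their stretches hold no searched letters. The whole *Ccne1* promoter had none, whereas *Cenpe* has a CCAAT box at position -12 from the start, outside the stretch printed. The E2F letters of the 1 mitotic promoter that had them, that of *Cdk1*, start at -131 and likewise lie outside its stretch. A further CHR of *Cdk1*, at -15, also lies outside it.
Cdk1: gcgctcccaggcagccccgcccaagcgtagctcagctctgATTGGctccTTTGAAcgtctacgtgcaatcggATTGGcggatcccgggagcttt
Cdc20: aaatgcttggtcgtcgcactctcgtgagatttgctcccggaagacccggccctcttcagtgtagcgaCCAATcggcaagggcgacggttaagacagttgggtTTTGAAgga
Kif11: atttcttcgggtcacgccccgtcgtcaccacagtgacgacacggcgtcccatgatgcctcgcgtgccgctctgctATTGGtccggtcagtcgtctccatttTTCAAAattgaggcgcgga
Top2a: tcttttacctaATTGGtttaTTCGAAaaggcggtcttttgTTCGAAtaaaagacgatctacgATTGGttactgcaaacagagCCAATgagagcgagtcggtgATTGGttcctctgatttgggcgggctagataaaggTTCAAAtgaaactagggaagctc
Mcm6: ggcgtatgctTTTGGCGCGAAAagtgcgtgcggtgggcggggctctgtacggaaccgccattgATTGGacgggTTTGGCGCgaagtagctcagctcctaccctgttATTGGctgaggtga
Mcm5: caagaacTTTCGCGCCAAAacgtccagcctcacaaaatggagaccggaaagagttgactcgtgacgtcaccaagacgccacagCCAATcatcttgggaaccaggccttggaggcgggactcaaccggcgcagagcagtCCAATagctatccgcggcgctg
Cenpe: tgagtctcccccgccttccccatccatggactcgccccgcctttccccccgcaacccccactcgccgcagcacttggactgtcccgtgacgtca
Ccne1: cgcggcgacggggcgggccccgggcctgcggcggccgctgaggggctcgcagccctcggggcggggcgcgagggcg

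HFD feeding was compared with LFD feeding to ask which genes of the adrenal cortex change in obesity. All 22 mitotic genes had a higher fitted level in HFD than in LFD mice. Their median log2 fold change was 1.12, whereas the median over the 17 S phase genes was 0.13 and that over all 15909 genes tested -0.01. Only *Cenpe* passed edgeR (quasi-likelihood F test, threshold 0.05 for p adjusted by Benjamini-Hochberg over all genes tested), against 0.974% of all genes called higher. At an unadjusted p below 0.05, 20 members were higher (17 mitotic and 3 S phase genes), against 12.4% of all genes, and 1 was lower, against 12.5%. DESeq2's Wald test, the tool named in the study's methods, called 17 members higher (15 mitotic and 2 S phase genes), against 6.12% of all genes, and 1 member lower, against 6.22%. In 13 mitotic genes, all 4 HFD mice lay above all 4 LFD mice, against 7.71% of all genes, and no member showed the opposite. The edgeR call of *Cenpe* was lost without LFD replicate 5, 6, or 7 or HFD replicate 2, 3, or 4, with no member then called, and with library totals in place of TMM scaling (adjusted p = 0.0661). The count of called members was 7 without HFD replicate 1, when *Ccnb1*, *Mki67*, *Prc1*, *Rrm2*, *Top2a*, and *Ube2c* joined *Cenpe*, and 1 without LFD replicate 2.

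**Figure D1:**
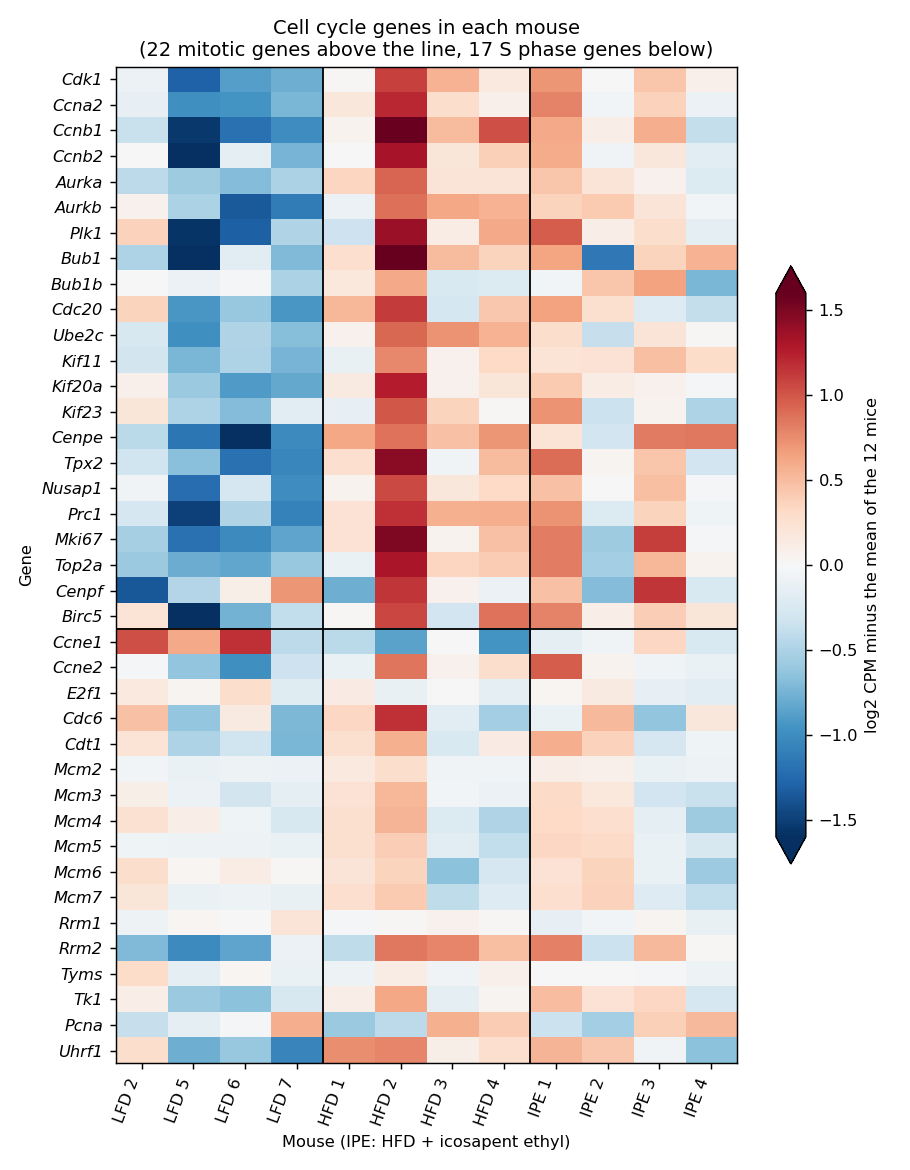
Expression of the 39 genes (rows) in each of the 12 mice (columns), as log2 CPM minus the mean of the 12 mice; red is above and blue below that mean, and values past either end of the color scale take the end color. The mitotic genes above the horizontal line are blue in most LFD mice and darkest red in HFD replicate 2, whereas most S phase genes are pale in every group.

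*Cenpe* (ENSMUSG00000045328, chr3:135212537-135273611, plus strand) encodes the kinesin that carries chromosomes to the middle of the spindle. Its expression was 0.677, 0.407, 0.290, and 0.452 CPM in the LFD mice, 1.41, 1.67, 1.27, and 1.49 CPM in the HFD mice, and 1.06, 0.738, 1.62, and 1.63 CPM in the icosapent ethyl–treated mice. The lowest HFD mouse had 1.27 CPM and the highest LFD mouse 0.677 CPM, so that the groups were apart by more than their spread. *Cenpe* rose from 0.456 ± 0.162 CPM on the LFD to 1.46 ± 0.167 CPM on the HFD (SD, n = 4), a log2 fold change of 1.65 (SE 0.28, edgeR adjusted p = 0.0398). The fold change ranged from 1.50 to 1.93 when each mouse was left out in turn. Its counts were 13.0 to 101 per mouse, which limited the precision of single values.

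Cyclins A and B and their kinase were the next group. *Ccnb1* (ENSMUSG00000041431, chr13:100778650-100786570, minus strand), cyclin B1, which starts mitosis with Cdk1, had the largest fold change of the 39 genes. It was expressed at 1.07, 0.472, 0.601, and 0.689 CPM in LFD, 1.43, 4.12, 1.95, and 2.80 CPM in HFD, and 2.10, 1.48, 2.06, and 1.05 CPM in icosapent ethyl–treated mice. Each HFD mouse exceeded each LFD mouse, and HFD replicate 2 was the highest of the 12. The LFD mean was 0.708 ± 0.258 CPM and the HFD mean 2.58 ± 1.18 CPM (SD, n = 4), for a log2 fold change of 1.84 (SE 0.39, edgeR adjusted p = 0.0553), and DESeq2 gave an adjusted p of 0.000223. *Cdk1* (ENSMUSG00000019942, chr10:69335146-69352938, minus strand) was at 1.92, 0.836, 1.11, and 1.19 CPM in LFD, 2.07, 4.38, 3.02, and 2.28 CPM in HFD, and 3.34, 2.03, 2.79, and 2.16 CPM in icosapent ethyl–treated mice. Here the lowest HFD mouse (2.07 CPM) was close to the highest LFD mouse (1.92 CPM), although the groups did not overlap. Its log2 fold change was 1.20 (SE 0.34, edgeR adjusted p = 0.0883), with a DESeq2 adjusted p of 0.00757. *Ccna2*, cyclin A2, acts in S phase and in early mitosis. Its values were 2.09, 1.16, 1.18, and 1.38 CPM in LFD, 2.60, 5.27, 2.77, and 2.42 CPM in HFD, and 3.96, 2.21, 2.95, and 2.15 CPM in icosapent ethyl–treated mice, without overlap of LFD and HFD mice. The log2 fold change of *Ccna2* was 1.16 (SE 0.33, edgeR adjusted p = 0.0885). *Ccnb2*, the other B-type cyclin, overlapped between LFD and HFD mice, with a log2 fold change of 1.05 (SE 0.41, edgeR adjusted p = 0.165).

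The 5 mitotic kinases had positive estimates, and their 95% intervals overlapped. *Aurka* (Aurora A, at the spindle poles) was at 1.26, 1.14, 1.05, and 1.19 CPM in LFD, 2.15, 3.23, 1.95, and 1.95 CPM in HFD, and 2.31, 1.95, 1.78, and 1.45 CPM in icosapent ethyl–treated mice. The LFD mice lay within a narrow range below every mouse of the other groups, and the log2 fold change in HFD mice was 0.99 (SE 0.23, edgeR adjusted p = 0.0612). *Aurkb*, the Aurora kinase of the chromosomal passenger complex, was at 1.24, 0.836, 0.468, and 0.547 CPM in LFD, 1.11, 2.19, 1.83, and 1.74 CPM in HFD, and 1.51, 1.58, 1.37, and 1.15 CPM in icosapent ethyl–treated mice. LFD replicate 2 was above HFD replicate 1, so that the groups overlapped, and the log2 fold change was 1.12 (SE 0.36, edgeR adjusted p = 0.111). For *Bub1*, a checkpoint kinase at the kinetochore, expression was 0.414, 0.172, 0.512, and 0.357 CPM in LFD, 0.703, 1.78, 0.828, and 0.746 CPM in HFD, and 0.902, 0.264, 0.747, and 0.856 CPM in icosapent ethyl–treated mice. HFD replicate 2 was far above the other 3 HFD mice, but all HFD mice were above the LFD mice, with a log2 fold change of 1.47 (SE 0.42, edgeR adjusted p = 0.0927). *Plk1*, the Polo kinase, overlapped between the groups (log2 fold change 1.11 (SE 0.51, edgeR adjusted p = 0.215)). *Bub1b*, which encodes the checkpoint protein BubR1, was the mitotic gene with the smallest difference, a log2 fold change of 0.25 with a 95% interval of -0.28 to 0.79.

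Among the genes of the anaphase-promoting complex, *Ube2c*, the enzyme that starts its ubiquitin chains, was at 1.28, 0.772, 1.09, and 0.951 CPM in LFD, 1.60, 2.88, 2.51, and 2.24 CPM in HFD, and 1.86, 1.19, 1.76, and 1.55 CPM in icosapent ethyl–treated mice. The LFD and HFD mice did not overlap, and the log2 fold change was 1.16 (SE 0.26, edgeR adjusted p = 0.0579). *Cdc20* overlapped, with a log2 fold change of 0.93 (SE 0.38, edgeR adjusted p = 0.178). Of the spindle motors, *Kif11*, which pushes the spindle poles apart, was at 1.35, 1.01, 1.18, and 0.998 CPM in LFD, 1.53, 2.83, 1.75, and 2.08 CPM in HFD, and 1.94, 1.95, 2.32, and 2.04 CPM in icosapent ethyl–treated mice. Every mouse on the HFD, with or without icosapent ethyl, was above every LFD mouse, and the log2 fold change in HFD mice was 0.84 (SE 0.25, edgeR adjusted p = 0.0960). *Kif20a*, a kinesin of cytokinesis, was at 2.39, 1.50, 1.20, and 1.28 CPM in LFD, 2.49, 5.38, 2.36, and 2.58 CPM in HFD, and 3.03, 2.45, 2.36, and 2.21 CPM in icosapent ethyl–treated mice. LFD replicate 2 lay just above HFD replicate 3, and the log2 fold change of 0.99 had an edgeR adjusted p of 0.138 and a DESeq2 adjusted p of 0.0388. *Kif23*, a kinesin of the midzone, overlapped (log2 fold change 0.61 (SE 0.32, edgeR adjusted p = 0.270)).

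The 3 spindle proteins other than motors each separated all HFD from all LFD mice. *Tpx2*, which activates Aurora A on the spindle, was at 1.92, 1.50, 1.05, and 1.16 CPM in LFD, 2.87, 6.49, 2.31, and 3.39 CPM in HFD, and 4.43, 2.48, 3.25, and 1.94 CPM in icosapent ethyl–treated mice, with a log2 fold change of 1.40 (SE 0.36, edgeR adjusted p = 0.0757) in HFD mice. *Nusap1*, which binds spindle microtubules, was at 1.92, 0.857, 1.65, and 0.998 CPM in LFD, 2.07, 4.14, 2.26, and 2.49 CPM in HFD, and 2.76, 1.98, 2.79, and 1.95 CPM in icosapent ethyl–treated mice, with a log2 fold change of 1.0 (SE 0.34, edgeR adjusted p = 0.128). The lowest HFD mouse exceeded the highest LFD mouse by little in *Nusap1* (2.07 against 1.92 CPM) and by more in *Prc1*. *Prc1*, which bundles microtubules of the midzone, was at 2.29, 0.986, 1.98, and 1.31 CPM in LFD, 3.24, 6.21, 4.09, and 4.14 CPM in HFD, and 4.54, 2.37, 3.53, and 2.63 CPM in icosapent ethyl–treated mice, with a log2 fold change of 1.41 (SE 0.32, edgeR adjusted p = 0.0598).

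*Mki67* (ENSMUSG00000031004, chr7:135689784-135716361, minus strand) encodes Ki-67, the protein that coats mitotic chromosomes and is the usual marker of cycling cells. It was at 1.62, 1.03, 1.16, and 1.31 CPM in LFD, 2.75, 6.58, 2.43, and 3.26 CPM in HFD, and 4.14, 1.58, 5.07, and 2.31 CPM in icosapent ethyl–treated mice. The lowest HFD mouse exceeded the highest LFD mouse, whereas icosapent ethyl replicate 2 lay within the LFD range. The LFD mean was 1.28 ± 0.253 CPM and the HFD mean 3.76 ± 1.92 CPM (SD, n = 4), for a log2 fold change of 1.54 (SE 0.35, edgeR adjusted p = 0.0587) with a DESeq2 adjusted p of 0.000573. Without HFD replicate 2, this fold change was 1.12. *Top2a* (ENSMUSG00000020914, chr11:98992943-99024189, minus strand), the topoisomerase that untangles sister chromatids, was at 2.52, 2.19, 2.14, and 2.50 CPM in LFD, 3.53, 9.35, 4.82, and 5.04 CPM in HFD, and 6.66, 2.61, 5.49, and 3.94 CPM in icosapent ethyl–treated mice. The LFD mice were within a narrow range, and every mouse of the other groups was above it. The log2 fold change of *Top2a* in HFD mice was 1.28 (SE 0.29, edgeR adjusted p = 0.0617). *Birc5*, which encodes survivin of the chromosomal passenger complex, and *Cenpf*, a kinetochore protein, overlapped between LFD and HFD mice, with log2 fold changes of 1.05 (edgeR adjusted p = 0.223) and 0.33 (edgeR adjusted p = 0.720). Leaving out HFD replicate 2 turned the sign of *Cenpf* to a log2 fold change of -0.15.

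**Figure D2:**
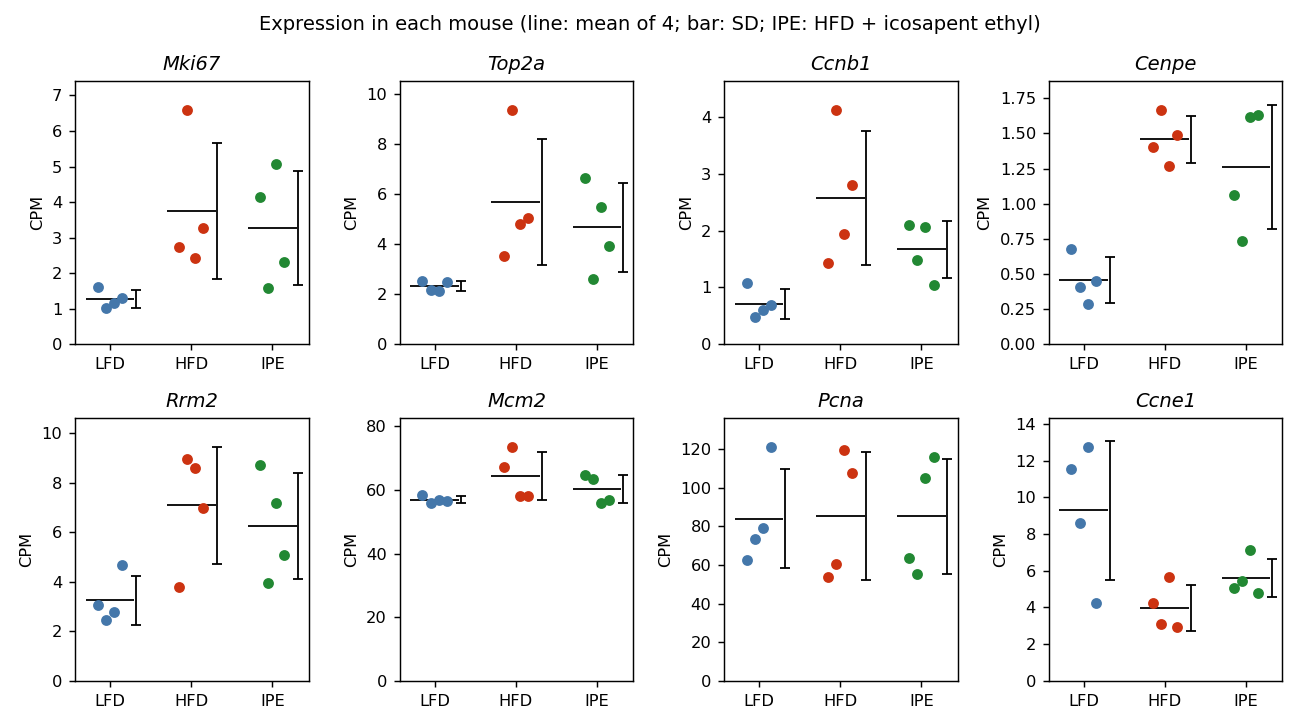
Expression of 8 of the genes in CPM (linear axes from 0) in each mouse of the LFD, HFD, and HFD with icosapent ethyl (IPE) groups; points are mice, lines the means of 4 mice, and bars the SD. The LFD mice lie below all HFD mice for *Mki67*, *Top2a*, *Ccnb1*, and *Cenpe*, the groups overlap for *Rrm2*, *Mcm2*, *Pcna*, and *Ccne1*, and *Pcna* falls into a lower and an upper pair in both groups on the HFD.

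The genes that start S phase had estimates in different directions. *Ccne1* (ENSMUSG00000002068, chr7:38097984-38107534, minus strand) and *Ccne2* encode the E-type cyclins, which activate Cdk2 at the entry into S phase. *Ccne1* was at 11.5, 8.62, 12.7, and 4.25 CPM in LFD, 4.22, 3.12, 5.65, and 2.92 CPM in HFD, and 5.07, 5.43, 7.11, and 4.77 CPM in icosapent ethyl–treated mice. LFD replicates 2, 5, and 6 were above every other mouse, and LFD replicate 7 lay within the HFD range. The LFD mean was 9.29 ± 3.78 CPM and the HFD mean 3.97 ± 1.25 CPM (SD, n = 4), for a log2 fold change of -1.24 (SE 0.36, edgeR adjusted p = 0.0944), and only DESeq2 called it (adjusted p = 0.0104). The chromaffin markers varied with this gene. Their sum was 15380.0, 9664, 17550.0, and 4940.0 CPM in LFD replicates 2, 5, 6, and 7, and 7779, 2418, 6734, and 2525 CPM in HFD replicates 1 to 4, and 4 of the 6 markers had an unadjusted p below 0.05, with less expression in HFD mice. With the mean of these markers as a covariate, chosen after the data were seen, the log2 fold change of *Ccne1* was -0.34 (edgeR adjusted p = 0.747). All 6 markers had a lower fitted level in HFD mice, so that the covariate was not independent of the diet groups. The part of these markers in the difference of *Ccne1* was not tested. *Ccne2* had a log2 fold change in the other direction, 0.76 (SE 0.30, edgeR adjusted p = 0.164). *E2f1*, a transcription factor of S phase genes, was at 22.0, 20.4, 24.0, and 17.2 CPM in LFD, 21.6, 18.1, 19.8, and 17.7 CPM in HFD, and 20.1, 21.8, 18.0, and 17.5 CPM in icosapent ethyl–treated mice. All groups shared 1 range, and the 95% interval of its log2 fold change in HFD mice was -0.44 to 0.18.

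Of the 8 genes that license and open origins of replication, none passed edgeR or DESeq2 in HFD versus LFD mice, none had an unadjusted p below 0.05, and their median log2 fold change was 0.15. *Cdc6* and *Cdt1*, which load the helicase, had log2 fold changes of 0.43 (SE 0.44, edgeR adjusted p = 0.576) and 0.47 (SE 0.26, edgeR adjusted p = 0.293). The subunits of the helicase had estimates nearer to 0. *Mcm2* was at 58.6, 56.0, 56.9, and 56.6 CPM in LFD, 67.4, 73.5, 58.2, and 58.2 CPM in HFD, and 64.8, 63.6, 56.1, and 57.0 CPM in icosapent ethyl–treated mice. HFD replicates 3 and 4 lay within the LFD range, HFD replicates 1 and 2 lay above it, and the 95% interval of the log2 fold change was -0.05 to 0.38. *Mcm5* was at 15.3, 15.1, 15.1, and 14.9 CPM in LFD, 19.1, 20.9, 14.0, and 12.2 CPM in HFD, and 20.0, 19.8, 14.8, and 13.4 CPM in icosapent ethyl–treated mice. Its LFD mice were close together, and the mice of both other groups lay above them when numbered 1 or 2 and below them when numbered 3 or 4. The log2 fold changes of *Mcm3*, *Mcm4*, *Mcm5*, *Mcm6*, and *Mcm7* in HFD mice were 0.27, 0.05, 0.13, -0.16, and 0.07. Their 95% intervals reached from -0.63 at the lowest to 0.63 at the highest, and the estimates of *Ccnb1*, *Cenpe*, and *Mki67* lay outside this range.

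The enzymes of nucleotide synthesis include both subunits of ribonucleotide reductase. *Rrm2* (ENSMUSG00000020649, chr12:24708241-24714146, plus strand), the small subunit, whose level follows the cell cycle, was at 3.07, 2.47, 2.78, and 4.68 CPM in LFD, 3.79, 8.96, 8.59, and 6.99 CPM in HFD, and 8.73, 3.95, 7.19, and 5.09 CPM in icosapent ethyl–treated mice. LFD replicate 7 was above HFD replicate 1, and the other 3 HFD mice were above every LFD mouse. The log2 fold change was 1.12 (SE 0.31, edgeR adjusted p = 0.0853), with a DESeq2 adjusted p of 0.00780. *Rrm1*, the large subunit, was at 43.6 to 55.3 CPM in the 12 mice, with a 95% interval of -0.20 to 0.15 for its log2 fold change. The interval of *Tyms*, thymidylate synthase, was -0.37 to 0.32, and that of *Tk1*, thymidine kinase, was -0.10 to 1.09. *Pcna* (ENSMUSG00000027342, chr2:132249162-132253314, minus strand) was at 62.5, 73.4, 79.0, and 121 CPM in LFD, 53.7, 60.6, 119.6, and 108 CPM in HFD, and 63.9, 55.5, 105, and 116 CPM in icosapent ethyl–treated mice. The spread within each group was larger than the difference between groups, and the log2 fold change in HFD mice was 0.02 (SE 0.29, edgeR adjusted p = 0.978). The pseudogene copy *Pcna-ps2* had 16 to 74 counts per mouse, against 2105 to 7180 for *Pcna* itself, and reads the copies share could not be reassigned from counts. *Uhrf1*, which guides maintenance methylation behind the fork, was at 2.11, 1.01, 1.14, and 0.832 CPM in LFD, 2.90, 2.96, 1.85, and 2.08 CPM in HFD, and 2.52, 2.32, 1.66, and 1.10 CPM in icosapent ethyl–treated mice. LFD replicate 2 overlapped with the HFD mice, and the log2 fold change of 0.92 had an edgeR adjusted p of 0.141 and a DESeq2 adjusted p of 0.0385.

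**Figure D3:**
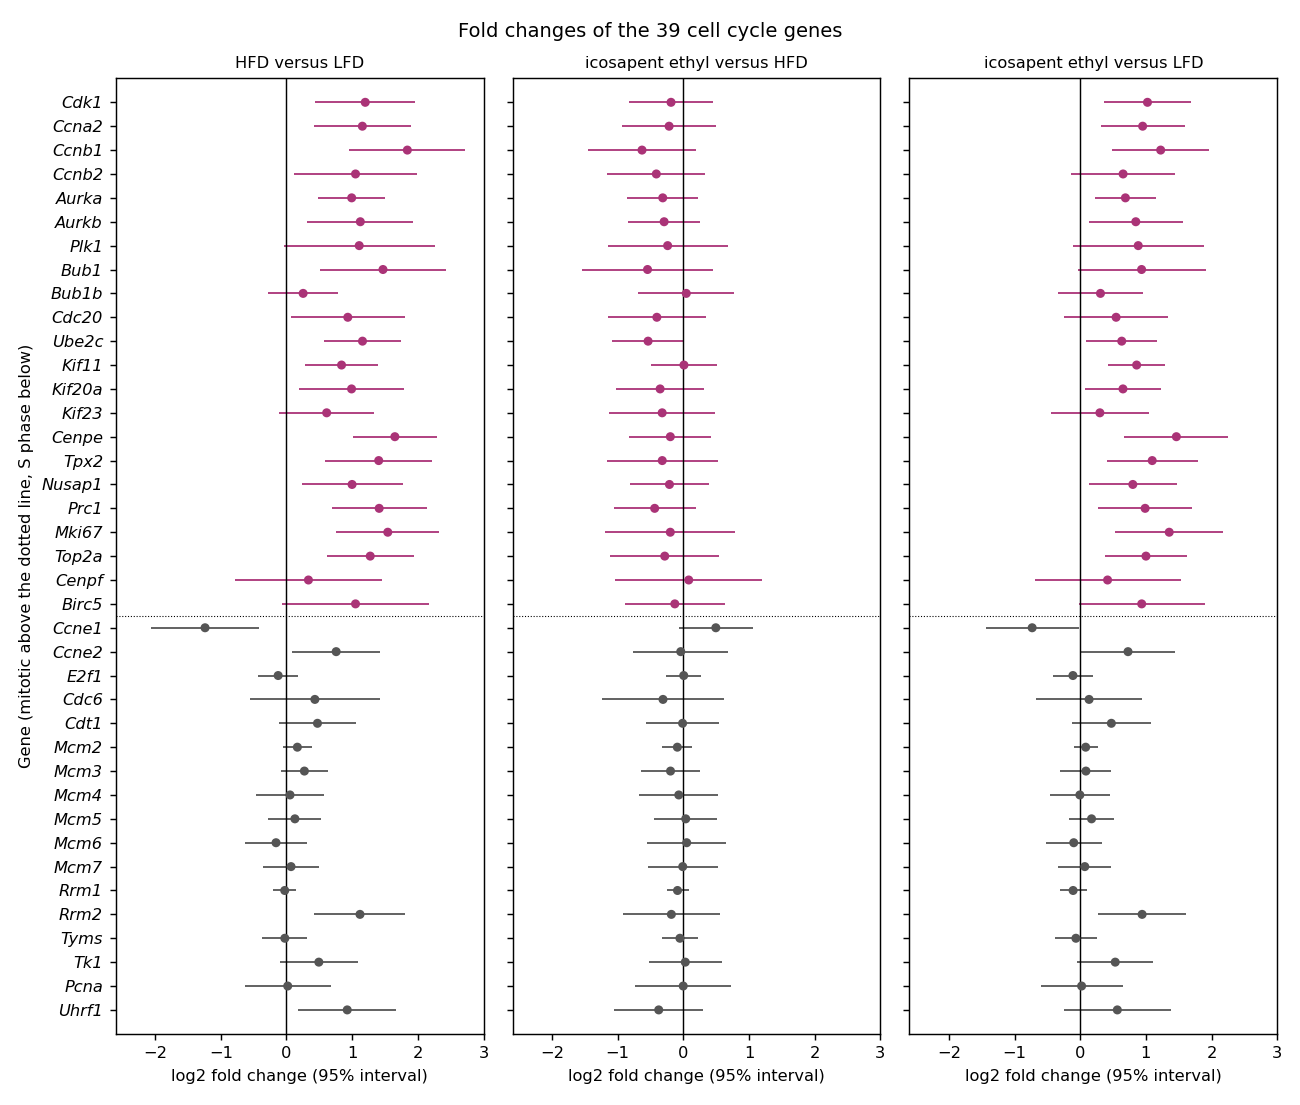
Fitted log2 fold changes (points) with 95% intervals (lines) of the 39 genes in the 3 comparisons; mitotic genes are purple, above the dotted line, and S phase genes gray, below it. In HFD versus LFD mice the mitotic points are all to the right of 0 and the *Mcm* points are near 0, and in icosapent ethyl–treated versus HFD mice every interval includes 0.

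The mice of 1 group were unequal in most mitotic genes at once. As the mean deviation of the 22 mitotic genes from their 12-mouse means on the log2 scale, the LFD mice were at -0.19, -0.98, -0.70, and -0.67 and the HFD mice at 0.07, 1.11, 0.21, and 0.37. Icosapent ethyl–treated mice were at 0.55, -0.10, 0.39, and -0.07. HFD replicate 2 was the highest HFD mouse in all 22 mitotic genes and the highest of the 12 mice in 21 of them, and LFD replicate 2 was the highest LFD mouse in 20. Over *Mcm2* to *Mcm7*, the group means of the same measure were -0.03 ± 0.10 in LFD, 0.04 ± 0.34 in HFD, and -0.00 ± 0.32 in icosapent ethyl–treated mice (SD, n = 4 each), so that the groups differed by less than the spread of the mice. Without HFD replicate 2, the median log2 fold change of the 39 genes in HFD versus LFD mice was 0.64 and no member passed, and without both mice numbered 2, chosen after the data were seen, it was 0.84, again with no member called. Each of these fits had fewer mice.

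**Figure D4:**
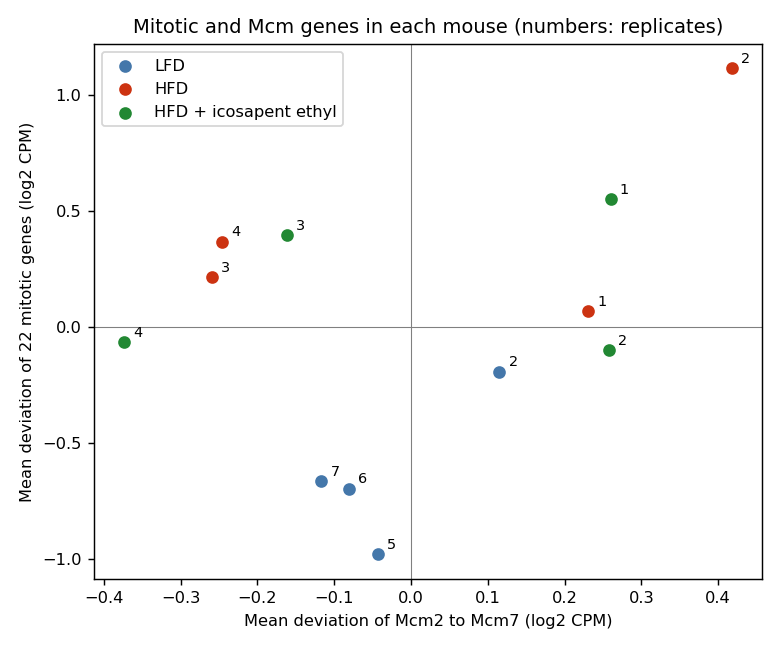
Mean deviation from the 12-mouse means (log2 CPM) of the 22 mitotic genes (vertical axis) against that of *Mcm2* to *Mcm7* (horizontal axis), with 1 point per mouse, colored by group and numbered by replicate. The LFD mice lie lowest on the vertical axis, from -0.98 to -0.19, HFD replicate 2 lies highest at 1.11, and the groups overlap along the horizontal axis.

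Other lists of the same pathways were read in the same fit of HFD versus LFD mice. They were chosen with earlier results of these data known and come from the same mice, so that they are not independent of the members. Of 43 further mitotic genes tested, 40 had a positive log2 fold change, with a median of 1.01. Of the 43, 1 passed edgeR and 17 passed DESeq2 (39.5%, against 6.12% of all genes), all higher. The gene past the edgeR threshold was *Ccnf*, which encodes cyclin F, a ubiquitin ligase subunit. *Ccnf* was at 1.60, 1.54, 1.51, and 1.28 CPM in LFD, 3.19, 2.94, 4.72, and 4.70 CPM in HFD, and 2.73, 2.0, 1.51, and 2.67 CPM in icosapent ethyl–treated mice. It separated LFD from HFD mice and rose by a log2 fold change of 1.38 (SE 0.22, edgeR adjusted p = 0.0388). HFD replicate 2 was the lowest HFD mouse in this gene. Of 51 further replication genes, 32 were positive, with a median of 0.11, and none passed edgeR. Of these 51 genes, 8 were higher at an unadjusted p below 0.05 (15.7%, against 12.4% of all genes) and 3 passed DESeq2 (5.88%, against 6.12%), shares near those of all genes. The lowest p in this list were those of *Clspn*, claspin of the replication checkpoint (log2 fold change 1.46 (SE 0.36, edgeR adjusted p = 0.0694)), and *Dnmt1*, the maintenance methyltransferase (log2 fold change 0.50 (SE 0.13, edgeR adjusted p = 0.0736)). Of 24 regulators of G1, none passed edgeR, and 7 were higher at an unadjusted p below 0.05 (29.2%, against 12.4% of all genes). DESeq2 called 5 of them higher (20.8%, against 6.12%), among them *E2f3* (log2 fold change 0.60 (SE 0.13, edgeR adjusted p = 0.0553)) and *Ccnd1*, cyclin D1 (0.39, edgeR adjusted p = 0.0807).

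Among the 7 inhibitors of cyclin-dependent kinases, *Cdkn1c*, which encodes p57, passed edgeR. It was at 218, 214, 247, and 314 CPM in LFD, 371, 484, 440.4, and 421 CPM in HFD, and 501, 355, 446, and 501 CPM in icosapent ethyl–treated mice. Every mouse on the HFD, with or without icosapent ethyl, was above every LFD mouse, and *Cdkn1c* rose in HFD mice by a log2 fold change of 0.78 (SE 0.13, edgeR adjusted p = 0.0398). The median over the 7 inhibitors was -0.09. *Cdkn1a*, which encodes p21, varied widely within groups, from 38.3 to 191 CPM in LFD mice.

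Markers of other cells were read beside these genes. The sum of 11 macrophage markers was 741.5 to 1138 CPM in LFD and 507.1 to 615.6 CPM in HFD mice, without overlap. Of the 10 tested, 8 had a negative and 2 a positive log2 fold change. By edgeR, 5 were called lower, against 75 of all 15909 genes, and by DESeq2 6 were, against 6.22% of all genes. No lymphocyte or endothelial marker passed edgeR or DESeq2, although 1 lymphocyte marker had an unadjusted p below 0.05, and of the 6 neutrophil markers only 2 passed the filter on counts and the granule gene *Mpo* was at 0 in every mouse. All 6 mesenchyme markers had a lower fitted level in HFD mice (median log2 fold change -0.44), and 0 passed edgeR. Of these, 3 had an unadjusted p below 0.05, against 12.5% of all genes, and 2 passed DESeq2, against 6.22%. The sum of the 6 mesenchyme markers was 306.8 to 508.3 CPM in LFD and 214.6 to 310.0 CPM in HFD mice. Of the 7 adipocyte markers, 0 passed edgeR. At an unadjusted p below 0.05, 3 were higher and 1 was lower, against 12.4% and 12.5% of all genes. DESeq2 called 2 higher and 1 lower, against 6.12% and 6.22%. The 7 markers summed to between 244.1 and 393.0 CPM in LFD and between 363.4 and 440.5 CPM in HFD mice. The 5 erythroid markers had a median log2 fold change of -0.59 and the 4 markers of the outer zone one of -0.10, and none of them passed edgeR or DESeq2, with 1 outer zone marker at an unadjusted p below 0.05. All 6 chromaffin markers had a lower fitted level in HFD mice (median log2 fold change -1.24). Of these, 4 had an unadjusted p below 0.05 (66.7%, against 12.5% of all genes) and 2 passed DESeq2 (33.3%, against 6.22%). All 7 cortical markers had a higher fitted level (median 0.49). Of these, 5 had an unadjusted p below 0.05 (71.4%, against 12.4% of all genes) and 2 passed DESeq2 (28.6%, against 6.12%). No marker of either list passed edgeR. HFD replicate 2, the highest mouse in most mitotic genes, had the lowest chromaffin sum of all 12 mice. HFD replicate 4, with nearly the same sum, had a mean deviation of the mitotic genes of 0.37. In LFD mice, replicate 2 was the highest in most mitotic genes with a sum of 15380.0 CPM, and replicate 7, with the lowest LFD sum, was at -0.67. With the chromaffin mean as a covariate, chosen after the data were seen, the median log2 fold change of the 39 genes was 0.59 and 0 genes of any kind passed edgeR. In icosapent ethyl–treated versus LFD mice, the same covariate moved this median upward, as given with that comparison. The part of the chromaffin or the other markers in the differences of the mitotic genes was not tested.

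Icosapent ethyl–treated mice were compared with HFD mice to ask what the supplement changed on the same diet. Of the 39 genes, 31 had a lower and 8 a higher fitted level, with a median log2 fold change of -0.20. None passed edgeR, against 0.0% of all genes tested, none had an unadjusted p below 0.05, against 1.39% of all genes, none passed DESeq2, against 0.0268%, and none separated the groups, against 1.14%. For *Mki67* the log2 fold change was -0.20 with a 95% interval of -1.19 to 0.79, and for *Top2a* it was -0.28 with an interval of -1.11 to 0.55. *Ccnb1* had an estimate of -0.63 with an interval of -1.46 to 0.20, and *Cenpe* one of -0.20 with -0.82 to 0.43. The intervals of these 4 genes included both decreases and increases, so that no direction could be given. *Ccne1* was the member with the largest positive estimate (0.49, 95% interval -0.07 to 1.06). Tighter intervals were those of *Mcm2* (-0.32 to 0.14) and *E2f1* (-0.26 to 0.27). Without HFD replicate 2, the median over the 39 genes was 0.06, so that the sign of this median rested on that mouse. With the replicate number as a block, the median was -0.17 and again no member passed.

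In the other lists, none of 45 mitotic, 50 replication, 24 G1, and 7 inhibitor genes passed edgeR or DESeq2 in this comparison. Of the mitotic genes, *Ccnf* and *Cdc25c*, a phosphatase that activates Cdk1, had the lowest p, with log2 fold changes of -0.80 and -0.89 (unadjusted p = 0.0135 and 0.0328, edgeR adjusted p = 1.0 for both). In the G1 list, the lowest p was that of *E2f7*, a repressor of the E2F family (log2 fold change -0.78, edgeR adjusted p = 1.0), and *Cdkn1c* had 0.07.

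Icosapent ethyl–treated mice were also compared with LFD mice, the group on the control diet. This comparison shares the LFD mice with the first and the icosapent ethyl–treated mice with the second, so that its values are not independent of theirs. The 22 mitotic genes all had a higher fitted level than in LFD mice. Their median log2 fold change was 0.87, and the median over the S phase genes was 0.08. No member passed edgeR, against 0.0% of all genes, whereas 16 were higher at an unadjusted p below 0.05, against 7.29% of all genes, and 1, *Ccne1*, was lower, against 6.67%. DESeq2 called 8 members higher (*Cdk1*, *Ccna2*, *Ccnb1*, *Kif11*, *Cenpe*, *Tpx2*, *Mki67*, and *Top2a*), against 1.4% of all genes. All 4 icosapent ethyl–treated mice were above all LFD mice in 9 mitotic genes, against 4.04% of all genes. These were *Cdk1*, *Ccna2*, *Aurka*, *Kif11*, *Cenpe*, *Tpx2*, *Nusap1*, *Prc1*, and *Top2a*. The log2 fold change of *Cenpe* was 1.46 (SE 0.35, edgeR adjusted p = 0.193), that of *Mki67* 1.36 (SE 0.37, edgeR adjusted p = 0.230), and that of *Ccnb1* 1.23 (SE 0.33, edgeR adjusted p = 0.230). For *Top2a* it was 1.0 (SE 0.28, edgeR adjusted p = 0.237), and for *Cdk1* 1.02 (SE 0.29, edgeR adjusted p = 0.238). *Aurkb* (0.85), *Rrm2* (0.94), and *Uhrf1* (0.57) had positive estimates with overlapping groups. *Ccne1* was lower by the estimate, -0.73 (SE 0.31, edgeR adjusted p = 0.349), and -0.17 with the chromaffin mean as a covariate. *Mcm2*, *Mcm5*, *E2f1*, and *Pcna* had 95% intervals of -0.10 to 0.26, -0.17 to 0.52, -0.41 to 0.19, and -0.60 to 0.64.

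For the further lists in icosapent ethyl–treated versus LFD mice, the median log2 fold change was 0.61 over 43 mitotic and 0.11 over 50 replication genes. None of these passed edgeR. DESeq2 called 4 of the mitotic genes higher (9.3%) and 1 of the replication genes (2%), against 1.4% of all genes. The lowest p of these lists were those of *Ckap2l* and *Ckap2*, spindle-associated proteins (log2 fold changes 1.32 (SE 0.28, edgeR adjusted p = 0.184) and 1.11 (SE 0.30, edgeR adjusted p = 0.232)), and of *Clspn* and *Mcm10*, an initiation factor (1.78 (SE 0.35, edgeR adjusted p = 0.184) and 1.11 (SE 0.30, edgeR adjusted p = 0.232)). In the G1 list these were *E2f3* and *Mycn*, a Myc family transcription factor (0.43 (SE 0.14, edgeR adjusted p = 0.270) and 0.97 (SE 0.33, edgeR adjusted p = 0.270)). *Cdkn1c* had a log2 fold change of 0.86 (SE 0.15, edgeR adjusted p = 0.153), and DESeq2 called 1 of the 7 inhibitor genes. The macrophage sum was 558.0 to 705.2 CPM in icosapent ethyl–treated mice, below every LFD mouse, and the chromaffin sum was 4399 to 8535 CPM. With the chromaffin mean as a covariate, the median log2 fold change of the 39 genes was 0.74, against 0.63 without it, and again 0 genes passed edgeR. The part of the macrophage or the chromaffin markers in the differences of the mitotic genes was not tested.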

How the data were processed

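Per the labels and the study's methods, the authors made strand-specific libraries from total RNA of the adrenal cortex (1 library per mouse, 12 mice), trimmed adaptors with cutadapt, aligned the reads to GRCm38 with STAR, and counted them on GENCODE M12 genes with HTSeq 0.6.1p1 in reverse-strand mode. They deposited raw counts per gene and mouse. Library totals were 34785979 to 67295963 counts, which for members with few counts leaves a large counting error. Low counts also limit the test. Each p-value is of the difference between groups, set against the spread between mice. That spread was estimated from 4 mice per group and moderated across all genes tested. Among the 66 pairs of libraries, none held copied counts (lowest chi-square per degree of freedom 26.6).

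Symbols came from GENCODE M21 (49326 of 49585 genes). Each comparison was fitted in its 8 mice with edgeR 4.0.16 in R 4.3.3 (TMM scaling, low counts removed by filterByExpr with min.count 10, quasi-likelihood F test in its robust form, Benjamini-Hochberg adjustment over all genes tested, threshold 0.05). DESeq2 1.42.0 was an alternative, with the others named in the closing section. CPM used TMM factors over the 12 mice. For HFD and icosapent ethyl–treated mice, whose labels run from 1 to 4, deviations from the group means correlated at 0.337, 0.162, 0.403, and 0.792 in mice sharing a number. The numbers were treated as pairs in the fit with a replicate block, which called 0 genes. HFD replicate 1 correlated more with icosapent ethyl replicate 2 (0.703), and HFD replicate 2 more with icosapent ethyl replicate 1 (0.613). The correlations therefore do not establish pairs by number, and LFD mice share only the number 2 with the HFD mice. Between mice numbered 1 or 2 and mice numbered 3 or 4, every correlation was negative, from -0.736 to -0.168. Correlations were 0.162 to 0.703 within the numbers 1 and 2, and -0.0391 to 0.792 within 3 and 4. Deviations from a group mean cancel out within the group, so that some negative values arise by construction. Only the fit with a replicate block adjusted for these numbers.

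The 39 members, the other lists, the markers, and the rule for named genes were chosen with earlier results of these data known. The rule gave values per mouse for 12 fixed members and for every other member past edgeR or DESeq2 or without overlap of groups, and of other lists the genes past edgeR or the 2 with the lowest p. Some members overlap genes on the opposite strand (such as *Ccna2* and *Exosc9*, or *Mcm7* and *Cops6*), which counting by strand keeps apart. The tests were checked on simulated data. The changes planted there were larger than that of any member and lay only in genes above a floor of counts. The spread between simulated mice was fixed and not shared between genes. The check therefore does not cover the members with the fewest counts or the differences that mice shared across genes.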

Additional observations from a re-analysis of the deposited data

Results flagged for a closer look

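In 6 of 117 groups of 4 mice (39 genes in 3 groups), 1 mouse lay apart from the other 3 by more than Dixon's critical share of the group's range, which chance gives in about 1 group in 20. HFD replicate 2 was apart in 4 mitotic genes. For *Kif20a* it was at 5.38 CPM against 2.36 to 2.58 CPM in the other HFD mice (a gap of 0.928 of the range), and for *Bub1* at 1.78 against 0.703 to 0.828 CPM (0.884). For *Ccna2* it was at 5.27 against 2.42 to 2.77 CPM (0.875), and for *Aurka* at 3.23 against 1.95 to 2.15 CPM (0.840). Icosapent ethyl replicate 1 was apart in *Ccne2*, with 2.92 against 1.39 to 1.56 CPM (0.892). LFD replicate 2 was apart in *Mcm7*, with 27.6 against 22.3 to 23.0 CPM (0.863).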

How the results depend on the processing

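In HFD versus LFD mice, 230 genes and 1 member passed edgeR. A threshold of 0.1 gave 1396 genes and 14 members, library totals in place of TMM 84 and 0, DESeq2's Wald test 1965 and 18, and 1 fit over all 12 mice 556 and 5 (*Aurka*, *Ccnb1*, *Cenpe*, *Prc1*, and *Ube2c*). No filter on low counts gave 271 genes and 3 members (*Ccnb1*, *Cenpe*, and *Mki67*). Size factors of DESeq2 gave 179 and 1, and 10 counts in every mouse 256 and 1. Leaving out 1 mouse gave 0 to 918 genes and 0 to 7 members, with 918 and 7 without HFD replicate 1, 78 and 1 without LFD replicate 2, and 0 without any other mouse. The 2 alternatives chosen after the data were seen, without both mice numbered 2 and with the chromaffin mean as a covariate, each gave 0 genes and 0 members, and the covariate lowered the median log2 fold change of the members to 0.59. In icosapent ethyl–treated versus LFD mice, it moved this median the other way, from 0.63 to 0.74, with 0 genes called. In HFD versus LFD mice, the median of the members was 0.64 to 1.05 when 1 mouse was left out. The cause was not tested, although fits without a mouse have fewer samples by construction. Library totals moved the median of all genes from -0.01 to -0.11 on the log2 scale.

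In icosapent ethyl–treated versus HFD mice, DESeq2 called 7 genes and 0 members, and every other alternative, the replicate block among them, 0 genes. Treating the numbers as pairs therefore changed no call of a member, and the members' median was -0.17 with the block. Leaving out 1 mouse gave medians of -0.32 to 0.06, and leaving out both mice numbered 2 gave 0.07. In icosapent ethyl–treated versus LFD mice, DESeq2 called 417 genes and 8 members, the fit over all 12 mice 2 genes, the fit without both mice numbered 2 also 2 genes, and leaving out 1 mouse 0 to 1 gene, with no member in the last 3.

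Signs turned only in members that edgeR did not call. Leaving out 1 mouse turned the sign of 1 mitotic and 8 S phase genes in HFD versus LFD mice, of 12 and 10 in icosapent ethyl–treated versus HFD mice, and of 0 and 7 in icosapent ethyl–treated versus LFD mice. Values are given for all 9 in HFD versus LFD mice and, in the other comparisons, for those among the 12 fixed members. In HFD versus LFD mice, leaving out 1 mouse gave log2 fold changes of -0.15 to 0.71 for *Cenpf*, -0.00020 to 0.70 for *Cdc6*, -0.14 to 0.21 for *Mcm4*, -0.0032 to 0.25 for *Mcm5*, -0.32 to 0.013 for *Mcm6*, -0.074 to 0.21 for *Mcm7*, -0.057 to 0.021 for *Rrm1*, -0.081 to 0.088 for *Tyms*, and -0.17 to 0.24 for *Pcna*. Library totals gave -0.032 for *Mcm4*, -0.014 for *Mcm7*, and -0.10 for *Pcna*, and leaving out both mice numbered 2 gave -0.41 for *Cenpf*, -0.046 for *Mcm4*, and 0.053 for *Tyms*. In icosapent ethyl–treated versus HFD mice, leaving out 1 mouse gave -0.34 to 0.071 for *Cdk1*, -0.49 to 0.22 for *Mki67*, -0.50 to 0.067 for *Top2a*, -0.057 to 0.064 for *E2f1*, -0.086 to 0.17 for *Mcm5*, and -0.19 to 0.21 for *Pcna*, for which library totals gave 0.070, 10 counts in every mouse 0.0013, and the replicate block 0.012. In icosapent ethyl–treated versus LFD mice, *Pcna* had -0.16 to 0.26 when 1 mouse was left out and -0.032 with library totals. The few counts of the mitotic genes limit what the depth can show.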

Other observations

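In the mice on the HFD, with or without icosapent ethyl, *Pcna* split by replicate number rather than by group. Mice numbered 1 and 2 were at 53.7, 60.6, 63.9, and 55.5 CPM, and mice numbered 3 and 4 at 119.6, 108, 105, and 116 CPM. *Mcm6* was at 29.3, 32.4, 29.7, and 32.4 CPM in the mice numbered 1 and 2 and at 16.1, 21.1, 23.5, and 16.9 CPM in those numbered 3 and 4, the opposite order. *Cdkn1a*, which encodes p21, was at 50.4, 60.2, 39.3, and 29.2 CPM in the former and at 199.7, 127, 109, and 101 CPM in the latter, and *Nr5a1*, the steroidogenic factor of the cortex, at 628, 655, 689, and 491 CPM and at 1262, 1204, 975, and 1254 CPM. In LFD mice, replicate 7 had the most *Pcna* (121 CPM), *Cdkn1a* (191 CPM), and *Nr5a1* (1161 CPM), and replicate 2 the least of each. These genes were chosen after their values were seen, and no test was run on this split. It was not limited to them. Across all genes past the filter, deviations from the group means also correlated negatively between mice numbered 1 or 2 and mice numbered 3 or 4. What the numbers stand for is not stated.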
